A study of Mus musculus with 6 samples.

Results

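Axon guidance ligands and receptors were examined in RNA-Seq of primary smooth muscle cells that were taken from the oviducts of WT and Pbrm1 cKO mice at D2, with 3 libraries per group. The members were the protein-coding genes whose symbols name the semaphorins, plexins, neuropilins, netrins, UNC5 receptors, Slit and Robo proteins, Eph receptors and ephrins, with Dcc and Neo1, and they made up 71 of the 54232 genes counted. The rule used symbols alone and no measured value, although it was chosen with earlier results of these data known. By family these were 20 semaphorins, 9 plexins, 2 neuropilins, 3 netrins, 8 netrin receptors, 3 Slit genes, 4 Robo genes, 14 Eph receptors and 8 ephrins. The symbols Unc50 and Unc5cl, counted with the netrin receptors, met the rule by their letters only, as neither is an UNC5-type netrin receptor, and removing them changed no count of called genes.

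Both groups were females of 8 to 12 weeks, mated with a stud male and taken on D2 of pregnancy. Oviducts were digested to single cells with trypsin, collagenase and dispase, and the cells were filtered, kept on dishes in serum for 4 h and a further 2 h, washed and lysed for total RNA. Per the study, cKO females carried floxed Pbrm1 alleles and a cre placed in the progesterone receptor gene (Pbrm1 fl/fl, PR-IRES-cre/+), so that deletion was limited to cells that had expressed this receptor at some point. The labels call the controls WT, whereas a supplement legend of the study names Pbrm1 fl/fl mice and biological replicates. The study gives a strain name for a progesterone receptor cre line from the Jackson Laboratory. The sources used here do not give the strain of the floxed Pbrm1 line or the number of animals per library. The p-values thus measure the spread between these libraries. The product of Pbrm1 is part of a SWI/SNF complex, which remodels chromatin.

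Guidance cues are secreted or membrane-bound proteins that attract or repel a moving cell or growth cone, and they act through receptors that reshape the actin cytoskeleton. Semaphorins signal through plexins, the secreted ones mostly with a neuropilin as coreceptor. Slit proteins bind Robo receptors, netrins bind Dcc, neogenin and the UNC5 receptors, and ephrins bind Eph receptors on a neighboring cell, where signals can run both ways. First described in the nervous system, the same proteins are used by blood vessels, smooth muscle and many other tissues for cell migration, sorting and contact.

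The targeted gene was examined first. Pbrm1 was at 170.1, 183 and 172 CPM (the usual count scaled by library size) in WT and at 43.5, 50.7 and 42.7 CPM in cKO, which was 26.0% of the WT mean (log2FC -1.94, SE 0.064, edgeR adjusted p = 9.1e-11). The log2FC is the log2 fold change of cKO against WT. Libraries held between 15390818 and 18947947 counts, and 3 counts, taken as the floor, corresponded to 0.159 to 0.193 CPM. The label smooth muscle was checked with marker genes. Acta2, Tagln, Des and Mylk were abundant in each library. Smtn, Myh11, Cnn1, Actg2 and Lmod1 were less so, with WT means of 136, 88.2, 62.1, 62.5 and 40.7 CPM. Synpo2 and Myocd were at WT means of 24.2 and 4.60 CPM, and Casq2 was at or near 0. Of 11 tested smooth muscle markers 6 were higher in cKO, among them Acta2, Tagln, Des and Mylk, and 1 was lower, Smtn (log2FC -0.29). The summed level of the smooth muscle list was 3676 to 3758 CPM in WT and 4632 to 5239.8 CPM in cKO. Markers of other cells were present as well, and in each library the fibroblast list summed to more than the smooth muscle list. The fibroblast list summed to 5332 to 5905 CPM in WT and 7989.7 to 8254 CPM in cKO, with 8 of 12 higher and 2 lower, and the leukocyte list to 732 to 786 in WT and 1114 to 1189 CPM in cKO, with 9 of 10 tested genes higher and 0 lower. Epithelial markers summed to 1062 to 1159.6 in WT and 1230.0 to 1366 CPM in cKO (8 of 12 higher, 1 lower). Mesothelial markers summed to 773 to 805 in WT and 821 to 877 CPM in cKO (2 of 10 higher, 4 lower). In that list C3 and Krt19 rose (means of 377 to 421 and 125 to 216 CPM), whereas Msln, Upk1b, Bnc1 and Lrrn4 fell to 53.6% to 77.0% of WT. Endothelial markers summed to 412 to 439 in WT and 364 to 382 CPM in cKO (4 of 12 higher, 1 lower). The lower marker was Kdr, the most abundant of that list, with means of 182 CPM in WT and 99.4 CPM in cKO. Such sums mainly follow the most abundant genes of a list. Markers of Schwann cells and neurons (Sox10, Foxd3, Elavl4 and Snap25) were too low to be tested, although Ngfr and Tubb3 rose (2 of 4 tested genes, with a summed list of 28.0 to 31.3 CPM in WT and 39.5 to 42.8 CPM in cKO). Markers of several cell types were thus present in each library, and in such bulk RNA more cells of a type and more RNA per cell cannot be told apart. The part of any of these cell types in the results that follow was not tested.

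Of the 71 members, 61 passed the filter on low counts, 13 were higher and 16 lower in Pbrm1 cKO, and 32 did not pass the threshold (edgeR quasi-likelihood F-test, two-sided, Benjamini-Hochberg adjusted p under 0.05 over all 15376 genes tested). Among all tested genes 43.7% were called, 21.9% higher and 21.8% lower, so the 47.5% of tested members that were called lay near this background, and the families were described gene by gene. WT and cKO ranges of CPM were separate for 32 members, 15 above and 17 below, against 53.5% of all tested genes (26.6% above and 26.9% below). The median of log2FC was 0.047 over the tested members and 0.0016 over all tested genes, and the median of its size was 0.282 and 0.217. Differences of more than 1 on the log2 scale were found in 4 of 61 members (6.56%), Sema4f, Sema7a, Robo2 and Ntn1, and in 6.60% of all tested genes. Ligands (34 genes, 32 tested) gave 6 higher and 7 lower, and receptors (37 genes, 29 tested) gave 7 higher and 9 lower. Counts by family or class below rest on few genes each and were not tested as sets. They are read against the 43.7% of all tested genes that were called.

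**Figure D1:**
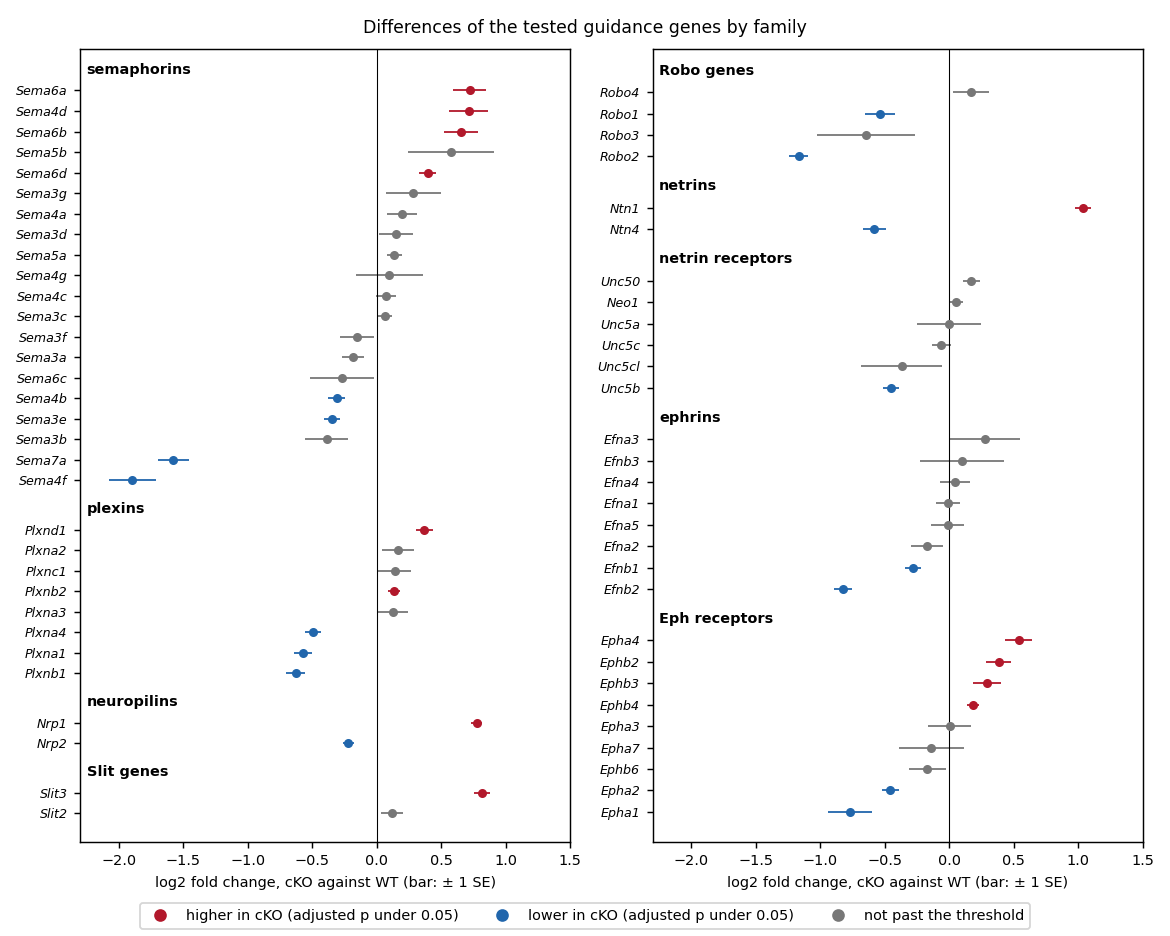
Log2 fold change of Pbrm1 cKO against WT (x axis, log2 scale, bar ± 1 SE) for each of the 61 tested members (y axis), by family. Red points were higher and blue points lower in cKO at an adjusted p under 0.05, from -1.89 for Sema4f to 1.04 for Ntn1, and grey points did not pass.

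The 10 members that were not tested held between 0 and 8 counts in any library. These were Dcc, Unc5d, Ntn5, Slit1, Plxnb3, Epha5, Epha6, Epha8, Epha10 and Ephb1. Dcc, the classical attractive netrin receptor of commissural axons, had 1 count in each of 2 WT libraries and 0 in the other 4. No difference was detectable for these genes at this depth.

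Levels were compared between genes as CPM per kb of exon, with all annotated exons of a gene merged. Orders and ratios of genes on this scale depend on that length, and which transcripts were present was not examined. Unc5b was the most abundant member in both groups, at 71.9 ± 4.54 CPM per kb in WT and 52.4 ± 4.15 in cKO (SD, n = 3), followed by Plxnb2 at 44.1 ± 0.781 and 48.4 ± 2.60. Next came Epha2 in WT (34.4 to 36.0 CPM per kb) and Nrp1 in cKO (32.7 to 33.5). Slit3 moved from rank 15 to rank 6, Ntn1 from 26 to 15, Efnb2 from 7 to 14 and Sema7a from 12 to 21 among the 71 members. Summed per family, the Slit genes stood at 158% of the WT level per length in cKO, the neuropilins at 131% and the netrins at 126%. Robo genes stood at 64.3%, ephrins at 78.3%, netrin receptors (with Unc50) at 83.1%, semaphorins at 85.1%, Eph receptors at 92.6% and plexins at 95.6%. Group ranges of these sums did not overlap for 7 of the 9 families, and 53.5% of all tested genes were separate when taken singly. Examples were Slit genes (13.8 to 15.4 CPM per kb in WT and 22.3 to 24.4 in cKO), Robo genes (4.77 to 4.84 and 2.92 to 3.30) and ephrins (56.4 to 61.4 and 44.8 to 47.3). They overlapped for plexins (78.2 to 83.7 and 73.1 to 80.0) and Eph receptors (67.4 to 70.2 and 58.3 to 67.5). Such sums can follow single genes. From WT to cKO mean CPM per kb went from 10.7 to 18.9 for Slit3 and from 2.85 to 1.27 for Robo2. It went from 13.4 to 4.46 for Sema7a and from 71.9 to 52.4 for Unc5b. Of the 20 tested semaphorins 4 were higher and 4 lower, with a median log2FC of 0.086. Unc50, counted with the netrin receptors by its letters only, made up 16.4 CPM per kb of their sum in WT and 18.4 in cKO. The netrin receptor sum without Unc50 was not taken.

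**Figure D2:**
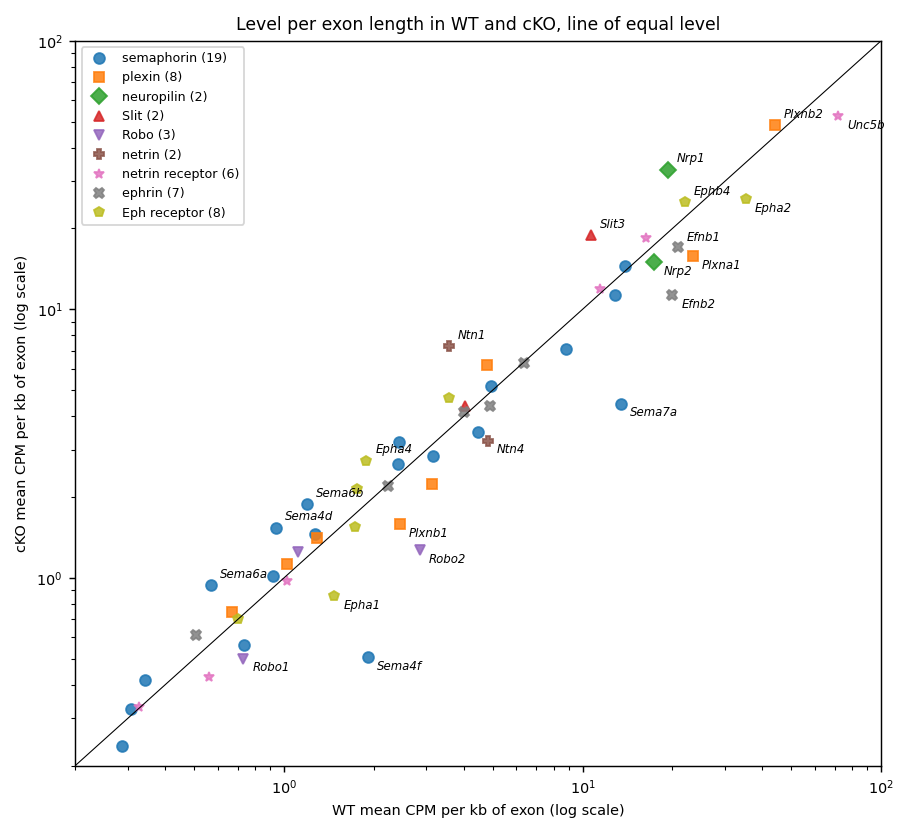
Mean CPM per kb of exon in WT (x axis, log scale) and Pbrm1 cKO (y axis, log scale) for the 57 members at 0.2 CPM per kb or more in both groups, with symbols by family and a line of equal level. Nrp1, Slit3 and Ntn1 sit above the line, and Unc5b, Plxna1, Efnb2, Robo2, Sema7a and Sema4f below it.

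Semaphorins gave the largest decreases. Sema4f, a transmembrane class 4 semaphorin (chr6:82911885-82939769, minus strand, GRCm38), was at 11.5, 10.6 and 8.20 CPM in WT libraries and 3.32, 2.86 and 1.87 CPM in cKO (log2FC -1.89, SE 0.18, edgeR adjusted p = 2.7e-06). Sema7a, which is held in the membrane by a lipid anchor and binds plexin C1 and integrins (chr9:57940112-57962865, plus strand), was at 42.7, 44.5 and 45.5 CPM in WT libraries and 14.9, 18.2 and 11.002 CPM in cKO. The highest cKO library was thus below the lowest WT library for both genes. Sema7a fell to 33.2% of the WT mean (log2FC -1.58, SE 0.12, edgeR adjusted p = 2.7e-07), and Sema4f to 26.6%. Plxnc1, the receptor gene of Sema7a, was at 8.54 ± 0.948 CPM (WT) and 9.43 ± 1.37 CPM (cKO, SD, n = 3) with overlapping ranges (edgeR adjusted p = 0.411). The 250 bases before the start site of both genes are shown, read from RefSeq (GRCm38.p6, Sema4f chr6:82939770-82940019, minus strand and Sema7a chr9:57939862-57940111, plus strand), because these 2 genes fell most of all members. Capitals mark matches, on either strand, to the GC box GGGCGG, the TATA box TATAAA, the AP-1 motif TGANTCA, the TEAD motif GGAATG or the CArG box, and no 2 matches overlap here.
Sema4f: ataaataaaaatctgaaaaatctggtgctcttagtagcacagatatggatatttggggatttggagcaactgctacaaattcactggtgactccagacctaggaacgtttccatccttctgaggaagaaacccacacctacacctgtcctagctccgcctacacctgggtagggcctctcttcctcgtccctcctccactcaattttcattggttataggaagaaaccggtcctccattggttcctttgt
Sema7a: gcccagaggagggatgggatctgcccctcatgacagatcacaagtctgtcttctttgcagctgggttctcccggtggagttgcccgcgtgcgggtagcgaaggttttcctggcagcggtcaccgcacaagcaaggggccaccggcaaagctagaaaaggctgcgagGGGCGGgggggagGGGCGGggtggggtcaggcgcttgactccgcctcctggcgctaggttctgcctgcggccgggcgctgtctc
The Sema4f window held none of these motifs and had a GC content of 46.0%, whereas the Sema7a window held 2 GC boxes at 66.4% GC. Each window was taken before the RefSeq start site nearest to the gene start in the count table. For Robo1, Sema3a and Sema4d that site was 354843, 271370 and 37064 bases away, and it was within 1611 bases for the other members. The median GC content was 64.8% over the windows of the 61 members found in RefSeq's table and 55.6% over those of 21262 protein-coding genes. A GC box was present in 45 of 61 member windows (73.8%), in 42.6% of windows of protein-coding genes and in 32.7% of all 32851 windows. It was present in 9 of 11 windows of higher members, 10 of 14 of lower members and 22 of 29 of members not called.

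Class 6 semaphorins, transmembrane ligands of class A plexins, included 3 of the 4 semaphorins that rose. Of the 4 genes of this class 3 were higher, against 21.9% of all tested genes. Sema6a was at 5.20, 5.51 and 4.27 CPM in WT libraries and 8.49, 7.96 and 8.30 CPM in cKO (log2FC 0.72, SE 0.12, edgeR adjusted p = 0.0004). Sema6b was at 5.08, 4.54 and 4.63 CPM in WT and at 7.48, 6.58 and 8.43 CPM in cKO (log2FC 0.65, SE 0.13, edgeR adjusted p = 0.0013), and Sema6d at 24.9, 27.3 and 24.7 CPM in WT and at 34.2, 34.4 and 32.7 CPM in cKO (log2FC 0.40, SE 0.066, edgeR adjusted p = 0.000296). For these 3 genes each cKO library lay above each WT library. The remaining member of the class, Sema6c, was low, at 1.71 ± 0.404 CPM (WT) and 1.40 ± 0.214 CPM (cKO, SD, n = 3), and did not pass (edgeR adjusted p = 0.411). Sema4d, a ligand of B-type plexins known from lymphocytes as CD100, was at 7.21, 8.23 and 6.26 CPM in WT libraries and 11.02, 14.7 and 9.71 CPM in cKO, also without overlap (log2FC 0.71, SE 0.15, edgeR adjusted p = 0.00188). Of the 10 tested leukocyte markers 9 were higher in cKO and Cd14 was not called. Ptprc (CD45) was at 14.7, 14.7 and 15.7 CPM in WT libraries and 28.9, 29.2 and 33.7 CPM in cKO. The lymphocyte markers Cd3e and Cd79a were at 0.117 to 0.295 and 0 to 0.295 CPM in WT libraries and 0 to 0.112 and 0 to 0.159 CPM in cKO, near or below the floor in most libraries.

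Of the 7 secreted class 3 semaphorins 1 was called, against 43.7% of all tested genes. Sema3e, which binds plexin D1 without a neuropilin, was at 42.2, 40.2 and 41.7 CPM in WT libraries and 34.3, 31.7 and 31.6 CPM in cKO (log2FC -0.35, SE 0.061, edgeR adjusted p = 0.000455). Sema3c, the most abundant semaphorin per length (13.9 ± 0.904 CPM per kb in WT and 14.5 ± 0.851 in cKO, SD, n = 3), was at 93.9, 96.9 and 106 CPM in WT libraries and 98.0, 110.0 and 102 CPM in cKO, and its ranges overlapped (log2FC 0.06, edgeR adjusted p = 0.408). Sema3a, the collapsin that repels sensory axons, was at 176, 177 and 183 CPM in WT libraries and 145, 187 and 139 CPM in cKO (log2FC -0.18, edgeR adjusted p = 0.0966). In cKO replicate 2 Sema3a lay above the WT range and in the other 2 cKO libraries below it, and without that library its log2FC was -0.33 (edgeR adjusted p = 1.5e-05). Sema3b, Sema3d, Sema3f and Sema3g ranged from a log2FC of -0.39 to 0.28 and were not called. Sema3a, Sema3d and Sema3e lie together on chromosome 5, with 422.7 kb between Sema3a and Sema3e, and Sema3e alone of them was called. Sema3g lies 96.3 kb from Pbrm1 on chromosome 14 and was at 1.55 ± 0.0979 CPM (WT) and 1.89 ± 0.168 CPM (cKO, SD, n = 3, edgeR adjusted p = 0.303).

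Among the other class 4 and class 5 semaphorins, Sema4b fell from 49.9 ± 3.39 to 40.3 ± 2.14 CPM (SD, n = 3; log2FC -0.31, SE 0.066, edgeR adjusted p = 0.00174). Sema4a, Sema4c, Sema4g, Sema5a and Sema5b had log2FCs between 0.07 and 0.57 and did not pass. Sema5a was at 44.4, 45.8 and 45.2 CPM in WT libraries and 52.3, 48.9 and 47.7 CPM in cKO, with no overlap, but its adjusted p was 0.065 (edgeR). Sema5b was the lowest of these at 0.473 to 1.05 CPM in WT libraries and 0.844 to 1.35 CPM in cKO.

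Neuropilins, the coreceptors of class 3 semaphorins and of VEGF, moved in opposite directions. Nrp1 (chr8:128358604-128503363, plus strand, GRCm38) was at 190.2, 188 and 190.0 CPM in WT libraries and 323, 328 and 320.3 CPM in cKO (log2FC 0.77, SE 0.041, edgeR adjusted p = 1.0e-08), a 1.71-fold higher mean. Nrp2 (chr1:62703285-62818695, plus strand) was at 210.4, 205 and 203 CPM in WT libraries and 184, 174 and 173 CPM in cKO (log2FC -0.22, SE 0.045, edgeR adjusted p = 0.00128). Neither gene's ranges overlapped. On the scale of CPM per kb, the ratio of Nrp1 to Nrp2 was 1.09, 1.11 and 1.13 in the WT libraries and 2.12, 2.29 and 2.24 in the cKO libraries. This pair, like the other pairs whose ratios are given, was chosen after its values were seen, and the ratios were not tested.

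Plexins, the signaling receptors, gave 2 higher and 3 lower of 8 tested. Plxna1 (chr6:89316314-89362620, minus strand, GRCm38) was at 229, 207 and 201 CPM in WT libraries and 137, 159.8 and 131 CPM in cKO (log2FC -0.57, SE 0.069, edgeR adjusted p = 2.0e-05). Plxna4 was at 46.5, 44.6 and 41.7 CPM in WT libraries and 32.5, 31.7 and 30.1 CPM in cKO (log2FC -0.49, SE 0.063, edgeR adjusted p = 3.3e-05), and Plxnb1, a receptor of Sema4d, at 23.8, 23.3 and 23.2 CPM in WT libraries and 15.5, 14.5 and 15.5 CPM in cKO (log2FC -0.63, SE 0.074, edgeR adjusted p = 1.5e-05). For these 3 receptors the highest cKO library was below the lowest WT library. Plxnd1, the receptor of Sema3e, was at 36.8, 36.3 and 32.0 CPM in WT libraries and 47.1, 43.7 and 45.0 CPM in cKO (log2FC 0.37, SE 0.067, edgeR adjusted p = 0.000548), above WT in each library. Plxnb2, the most abundant plexin, was at 345, 343 and 334 CPM in WT libraries and 393, 375 and 353 CPM in cKO, without overlap but close to the threshold (log2FC 0.13, SE 0.047, edgeR adjusted p = 0.035). The Plxnb2 call was lost without WT replicate 1, 2 or 3 or cKO replicate 1 (adjusted p = 0.0691, 0.0845, 0.122 and 0.169) and with upper quartile scaling (0.0531). Plxna2, Plxna3 and Plxnc1 had overlapping ranges and log2FCs between 0.12 and 0.16. Per length the order in WT was Plxnb2, Plxna1 and Plxnd1 (4.38 to 5.04 CPM per kb), and it was the same in cKO.

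**Figure D3:**
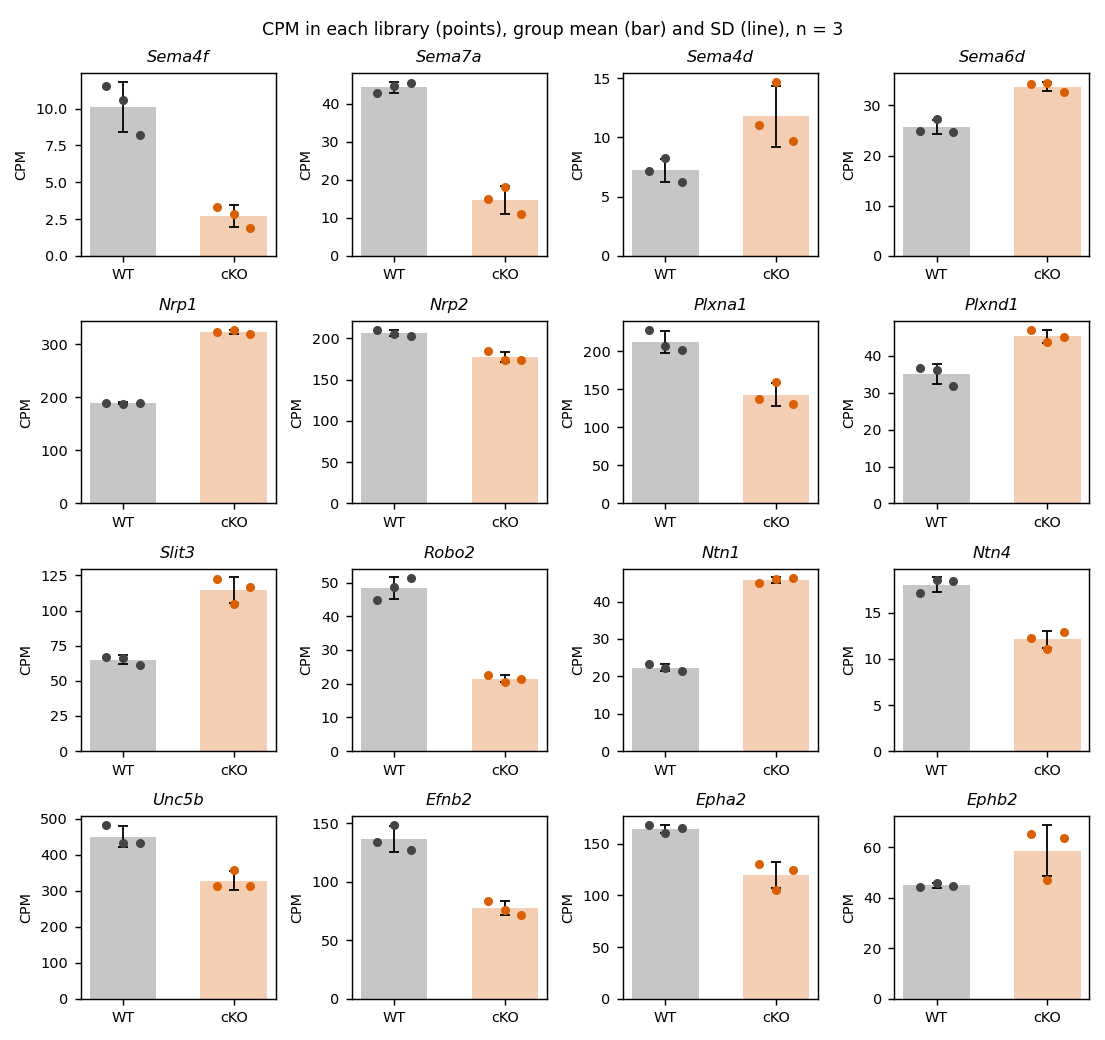
CPM (y axes, each from 0) in each WT and Pbrm1 cKO library for 16 members, as points, with the group mean as a bar and the SD as a line (n = 3). All 16 are called members with separate ranges, so the groups overlap in no panel by this choice. Of the 61 tested members 32 were separate, against 53.5% of all tested genes. In Ephb2 cKO replicate 2, at 46.9 CPM, lies close to the highest WT library at 45.8 CPM.

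The called Slit and Robo genes also differed in direction, with Slit3 higher and Robo1 and Robo2 lower. Slit3, a secreted ligand of Robo receptors (chr11:35121224-35708507, plus strand, GRCm38), was at 67.3, 66.0 and 61.4 CPM in WT libraries and 122, 105 and 117 CPM in cKO (log2FC 0.82, SE 0.062, edgeR adjusted p = 3.0e-07). Slit2 was at 102, 113 and 92.6 CPM in WT libraries and 107, 128 and 99.1 CPM in cKO, with overlapping ranges (log2FC 0.12, edgeR adjusted p = 0.305). Slit3 was the more abundant per length in both groups, and its ratio to Slit2 was 2.76, 2.44 and 2.78 in WT and 4.81, 3.42 and 4.93 in cKO. In CPM, before division by exon lengths of 6067 and 25433 bases, Slit3 was below Slit2 in each WT library, and both genes overlapped in cKO. The receptor gene Robo2 (chr16:73891839-74411825, minus strand) was at 44.9, 48.7 and 51.4 CPM in WT libraries and 22.5, 20.5 and 21.5 CPM in cKO, or 44.5% of WT (log2FC -1.17, SE 0.070, edgeR adjusted p = 3.3e-08). Robo1 was at 12.8, 11.9 and 11.5 CPM in WT libraries and 9.78, 7.69 and 7.33 CPM in cKO (log2FC -0.54, SE 0.12, edgeR adjusted p = 0.00205). Both receptor genes were lower in every cKO library than in any WT library, and they lie 845.7 kb apart on chromosome 16. Robo4, the Robo gene of endothelium, was at 7.03, 5.61 and 5.04 CPM in WT libraries and 6.97, 6.26 and 6.63 CPM in cKO and did not pass (edgeR adjusted p = 0.353). Of the 12 endothelial markers 4 were higher (Vwf, Egfl7, Plvap and Esam), Kdr was lower and the others, among them Cdh5 and Pecam1, were not called. Robo3 was at 0.473 to 1.11 CPM in WT libraries and 0.450 to 0.643 CPM in cKO, with overlap. Per length Robo2 exceeded Robo4 in WT (2.64 to 3.03 against 0.950 to 1.33 CPM per kb), whereas in cKO their ranges overlapped (1.21 to 1.32 against 1.18 to 1.32). The ratio of Slit3 to Robo2 was 4.20, 3.80 and 3.34 in WT and 15.2, 14.3 and 15.2 in cKO. The bases before the start site of Robo2 (chr16:74411826-74412075, minus strand, RefSeq, GRCm38.p6) are shown because it had the largest decrease among the receptors.
Robo2: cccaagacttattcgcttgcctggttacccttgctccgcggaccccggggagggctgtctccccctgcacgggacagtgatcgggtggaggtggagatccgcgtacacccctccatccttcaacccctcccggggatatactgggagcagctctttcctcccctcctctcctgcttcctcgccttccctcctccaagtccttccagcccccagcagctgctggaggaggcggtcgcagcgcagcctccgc
None of the motifs named above was found in this window, which had a GC content of 65.6%.

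The tested netrins moved in opposite directions. Ntn1, the founding secreted netrin (chr11:68209364-68400823, minus strand, GRCm38), was at 23.3, 22.3 and 21.4 CPM in WT libraries and 44.9, 46.2 and 46.3 CPM in cKO (log2FC 1.04, SE 0.062, edgeR adjusted p = 3.2e-08), the largest increase among all members. Ntn4, a netrin of basement membranes, was at 17.1, 18.6 and 18.5 CPM in WT libraries and 12.3, 11.1 and 12.9 CPM in cKO (log2FC -0.58, SE 0.088, edgeR adjusted p = 0.000135). Per length the order of the pair was reversed, with a ratio of Ntn1 to Ntn4 of 0.810, 0.716 and 0.690 in WT and 2.17, 2.48 and 2.13 in cKO. In CPM Ntn1 was above Ntn4 in every library of both groups, so the reversal rests on the exon lengths (6277 and 3741 bases). Unc5b, a repulsive netrin receptor known from sprouting vessels (chr10:60762593-60831581, minus strand), was at 483, 433 and 433 CPM in WT libraries and 314, 358 and 312 CPM in cKO (log2FC -0.45, SE 0.060, edgeR adjusted p = 4.4e-05), with no overlap. It was the only 1 called of the 6 tested genes counted with its family, which include Unc50 and Unc5cl. Neo1, which binds netrins and repulsive guidance molecules, was at 96.6, 103 and 101 CPM in WT libraries and 103, 109 and 99.3 CPM in cKO (log2FC 0.05, edgeR adjusted p = 0.42), and Unc5c at 19.1 to 19.7 CPM in WT libraries and 18.3 to 19.2 CPM in cKO. Unc5a and Unc5cl were below 3 CPM in all libraries. Unc50, which is no UNC5 receptor, was at 25.1, 25.1 and 27.3 CPM in WT libraries and 28.4, 29.7 and 29.1 CPM in cKO (edgeR adjusted p = 0.0513).

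**Figure D4:**
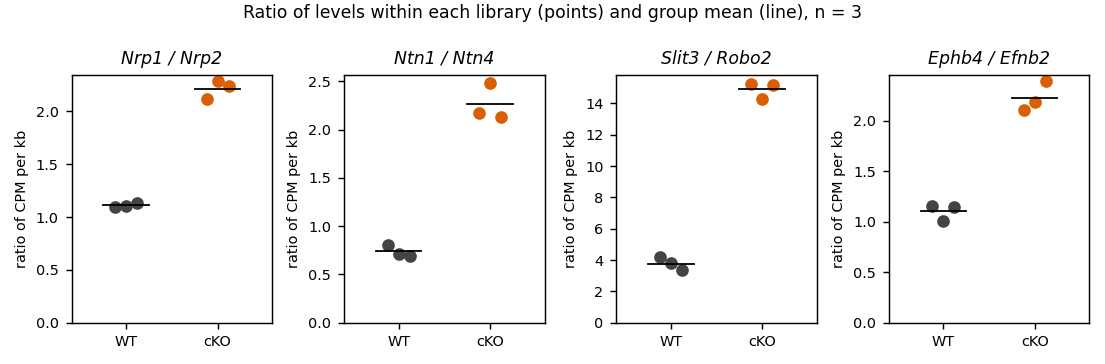
Ratio of CPM per kb between 2 members within each library (y axes, linear, from 0) for 3 WT and 3 Pbrm1 cKO libraries, with points for libraries and a line for the group mean. The 4 pairs are Nrp1 to Nrp2, Ntn1 to Ntn4, Slit3 to Robo2 and Ephb4 to Efnb2. Each sets a member called higher over a member called lower, so the cKO libraries lie above the WT libraries by this choice. The Ntn1 to Ntn4 ratio crosses 1 per length but not in CPM.

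Ephrins were examined by type. Ephrin-A genes, which encode lipid-anchored ligands, gave 0 of 5 called (by edgeR, with 0 of 5 at an unadjusted p under 0.05, and 0 of 5 with DESeq2 or limma-voom), with log2FCs from -0.17 to 0.27. Of the transmembrane ephrin-B genes 2 of 3 fell. Among all tested genes 43.7% were called and 21.8% were lower. Efnb2, the ligand of EphB4 (chr8:8617434-8661242, minus strand, GRCm38), was at 134, 149 and 127 CPM in WT libraries and 83.6, 76.2 and 71.8 CPM in cKO (log2FC -0.82, SE 0.066, edgeR adjusted p = 4.7e-07). Efnb1 (chrX:99136130-99148991, plus strand) was at 77.9, 68.5 and 69.1 CPM in WT libraries and 57.3, 59.8 and 60.2 CPM in cKO (log2FC -0.28, SE 0.059, edgeR adjusted p = 0.00165). Each gene was lower in all cKO libraries, and Efnb3 was below 1 CPM throughout. Per length Efnb1 and Efnb2 overlapped in WT (19.9 to 22.6 and 18.6 to 21.7 CPM per kb), and in cKO Efnb1 lay above Efnb2 (16.6 to 17.4 and 10.5 to 12.2). Efna1, Efna3 and Efna4 lie within 1 stretch of chromosome 3, where Efna1 and Efna4 are 52.2 kb apart.

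Eph receptors are the largest family of receptor tyrosine kinases. Of the 4 EphB receptors tested, 3 were higher in cKO, against 21.9% of all tested genes, and Ephb6 was not called. Ephb4 (chr5:137350109-137378669, plus strand, GRCm38) was at 105, 102 and 98.9 CPM in WT libraries and 119.5, 113 and 116 CPM in cKO (log2FC 0.19, SE 0.047, edgeR adjusted p = 0.00569). Ephb2 was at 44.3, 45.8 and 44.6 CPM in WT libraries and 65.3, 46.9 and 63.9 CPM in cKO (log2FC 0.38, SE 0.10, edgeR adjusted p = 0.00621). Groups did not overlap for either gene, although Ephb2 in cKO replicate 2 was close to WT. Ephb3 was at 13.6, 11.3 and 10.0 CPM in WT libraries and 14.3, 13.5 and 14.9 CPM in cKO, with overlap (log2FC 0.29, SE 0.11, edgeR adjusted p = 0.0473). Without WT replicate 2 or 3 or cKO replicate 1 or 3 the adjusted p for Ephb3 was 0.129, 0.199, 0.107 and 0.119, and it was 0.12 with DESeq2 and 0.0561 with upper quartile scaling. Ephb6, whose protein lacks kinase activity, was at 6.09 to 7.27 CPM in WT libraries and 4.72 to 6.37 CPM in cKO and did not pass. The ratio of Ephb4 to its ligand gene Efnb2 was 1.16, 1.01 and 1.15 in WT and 2.11, 2.18 and 2.39 in cKO, per length.

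Among EphA receptors Epha2, the receptor of ephrin-A1 that is common in epithelia, was the most abundant. It was at 168, 161 and 165 CPM in WT libraries and 130.1, 105 and 124 CPM in cKO (log2FC -0.46, SE 0.066, edgeR adjusted p = 8.5e-05). Epha1 was lower as well, at 5.55, 6.04 and 5.80 CPM in WT libraries and 4.05, 3.66 and 2.38 CPM in cKO (log2FC -0.77, SE 0.17, edgeR adjusted p = 0.00243). Epha4, which binds both ephrin types, was at 13.3, 14.5 and 17.8 CPM in WT libraries and 23.8, 21.4 and 20.8 CPM in cKO (log2FC 0.54, SE 0.10, edgeR adjusted p = 0.000891). The groups were separate for all 3 genes. Epha3 and Epha7 had overlapping ranges at 4.49 to 7.49 and 1.12 to 1.71 CPM in WT. Of the 12 epithelial markers 8 were higher in cKO, for example Krt8 and Cdh1 (log2FC 0.18 and 0.54), Wfdc2 was lower (log2FC -0.70) and 3 were not called, and the part of these cells in the Epha2 and Epha1 values was not tested.

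The windows before the start sites of Efnb2 (chr8:8661243-8661492, minus strand) and Ephb4 (chr5:137349859-137350108, plus strand) are shown, from RefSeq (GRCm38.p6), as those of a ligand and its receptor whose genes changed in opposite directions, with capitals as above.
Efnb2: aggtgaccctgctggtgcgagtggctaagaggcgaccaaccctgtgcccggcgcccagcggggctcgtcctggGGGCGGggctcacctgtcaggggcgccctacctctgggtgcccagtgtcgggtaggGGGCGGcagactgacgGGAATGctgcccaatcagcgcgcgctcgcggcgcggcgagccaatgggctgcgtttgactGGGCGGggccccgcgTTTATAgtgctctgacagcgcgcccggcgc
Ephb4: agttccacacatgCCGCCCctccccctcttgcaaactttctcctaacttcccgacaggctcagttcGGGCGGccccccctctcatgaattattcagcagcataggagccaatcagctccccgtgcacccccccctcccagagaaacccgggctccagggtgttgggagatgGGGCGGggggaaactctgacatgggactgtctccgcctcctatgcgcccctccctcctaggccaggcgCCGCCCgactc
Both windows were GC-rich (72.0% and 64.0%), and GC boxes were found in both. Efnb2 also held the reverse complement of TATAAA, 1 of 2 member windows with that motif (3.28%, against 11.6% of windows of protein-coding genes), and the TEAD motif GGAATG. The latter was in 6 member windows (9.84%, against 11.7%), those of Efnb2, Epha1, Epha2 and Plxnb1, which fell, Plxnd1, which rose, and Epha3. The AP-1 motif was in 1 member window (1.64%, against 6.13%) and the CArG box in 1, that of Robo1 (1.64%, against 1.39%), whose window is the distant one given above. A match is a match of letters only and was not tested for binding.

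Other genes of the pathway were taken from 4 lists. Of 95 tested, 25 were higher and 27 lower, again read against 21.9% and 21.8% of all tested genes. Among cues and receptors outside the named families, 5 of 19 rose and 5 fell (median log2FC 0.08). Kdr, the VEGF receptor that can complex with Nrp1, was at 186, 185 and 174 CPM in WT libraries and 99.0, 111 and 88.3 CPM in cKO (log2FC -0.87, SE 0.068, edgeR adjusted p = 3.7e-07), and Flt1 at 13.5, 14.2 and 13.9 CPM in WT libraries and 21.4, 20.2 and 20.7 CPM in cKO (log2FC 0.58). Vegfc, whose product binds Nrp2, was at 28.4, 25.4 and 24.9 CPM in WT libraries and 15.4, 16.5 and 17.8 CPM in cKO (log2FC -0.67). Kdr and Vegfc were lower and Flt1 higher without overlap, and Kdr was also the 1 endothelial marker that fell. Boc, a coreceptor in netrin and Hedgehog signaling, rose from 68.3 ± 3.77 to 98.2 ± 3.70 CPM, Lrrc4c, a netrin-G1 ligand, rose from 4.54 ± 1.15 to 8.46 ± 0.877 CPM, and Flrt1 fell from 7.39 ± 1.08 to 5.80 ± 0.246 CPM (SD, n = 3). Flrt2 and Flrt3 were lower too (log2FC -0.29 and -0.33), so that all 3 Flrt genes, whose products bind UNC5 receptors, fell. Flrt2 and Flrt3 were named after their values were seen.

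Adhesion coreceptors gave 4 higher and 5 lower of 13 tested (median log2FC -0.18). Alcam fell from 65.4 ± 0.531 to 43.8 ± 2.46 CPM, Gpc1, a heparan sulfate proteoglycan that binds Slit proteins, from 157 ± 6.97 to 112 ± 11.3 CPM, and Itgb1, the integrin chain bound by Sema7a, from 1800.3 ± 69.7 to 1588 ± 5.16 CPM (SD, n = 3). Met and Sdc3 fell as well (log2FC -0.25 and -0.20), and Nrcam rose from 22.2 ± 1.39 to 29.6 ± 2.02 CPM. Chl1, Cntn1 and Cntn2, with group means below 5 CPM, also rose (log2FC 1.98, 1.04 and 1.12), Chl1 from a WT mean of 0.285 CPM near the floor. Cytoplasmic mediators gave 14 higher and 16 lower of 56 (median log2FC 0.00016). Mical2 and Mical1, which oxidize actin downstream of plexins, fell from 459 ± 10.2 to 299 ± 24.2 CPM and from 38.2 ± 0.738 to 28.3 ± 2.92 CPM (SD, n = 3). Trio, a guanine nucleotide exchange factor, also fell (log2FC -0.40), while Fes, a tyrosine kinase, and the exchange factors Vav3 and Ngef rose (log2FC 0.62, 0.44 and 0.45). With group means below 5 CPM, Crmp1, Dpysl4, Dpysl5 and Chn2 were called lower (log2FC -2.43, -1.86, -0.97 and -0.63), Crmp1 to a mean of 0.186 CPM near the floor. Of 7 proteases that act on guidance receptors and ligands, Mmp2 and Adam17 rose (log2FC 0.46 and 0.26) and Mmp14 fell (-0.46).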

How the data were processed

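RNA-Seq was performed on D2 primary oviductal smooth muscle cells in 3 WT and 3 Pbrm1 cKO libraries, grouped by the genotype in the labels. The authors deposited 1 table of raw counts per gene. Per the file headers it was made with featureCounts 1.6.4 over exons of GENCODE M18 in reverse-stranded mode. The counting also left out multi-mapping reads, so that reads of near-identical copies were lost. The submitters' processing notes name cutadapt, HISAT2 and GRCm38.p5. Symbols were found for 54079 of 54232 genes in a list of gene names, and coordinates are those of the table. Gene types, which defined the protein-coding genes, were taken from GENCODE M21 (54165 genes). Same-strand exon overlap with another gene reached at most 1.38% of a member's exon length (Plxnc1).

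The groups were compared with the quasi-likelihood F-test of edgeR (version 4.0.16, R 4.3.3, two-sided, TMM normalization, filterByExpr by group, Benjamini-Hochberg adjustment over 15376 genes, threshold 0.05), checked first on simulated data. The SE of a log2 fold change is its size divided by the square root of F. CPM use the effective library sizes, and CPM per kb divide by the exon length in the table. The study used DESeq2, which was an alternative here (1.42.0), as were limma-voom (limma 3.58.1), 3 other scalings, 2 other filters, 2 other thresholds, a block for the replicate number and fits without 1 library. Libraries held 15390818 to 18947947 counts. Floors cover counting error only, because the reads carried no molecular identifiers. Replicate libraries differed beyond sampling noise in each pair (chi-square per gene 1.28 to 1.60 over 2252 genes). Upstream windows of 250 bases came from RefSeq's promoter table, which held 61 of the 71 members.

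Values of every library are given for called members, up to 6 per family by size of change, and for the 2 members of each family with the highest WT level per length, and up to 6 called genes at 5 CPM or more are named from each other pathway list. Called adhesion coreceptors and cytoplasmic mediators below 5 CPM were named after their values were seen. The members, lists and tests were chosen with earlier results of these data known. Some markers of the neuron and Schwann cell list are not reported here and were left out of its sum.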

Additional observations from a re-analysis of the deposited data

How the results depend on the processing

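All 16 lower calls and 11 of 13 higher calls among the members kept their direction and their side of the threshold under 14 alternatives (DESeq2, limma-voom, 3 scalings, 2 filters, the replicate block and 6 fits that each left out 1 library). Ephb3 lost its call in 6 and Plxnb2 in 5 of them. Sema3a passed in 3, Unc50 in 3 and Sema5a in 1. Higher members numbered 11 with upper quartile scaling, 15 with library size only and 12 with DESeq2, and leaving out 1 library gave 11 to 13 higher and 16 to 17 lower. With a fold change of at least 1.5 6 members were higher and 6 lower, and 6 and 7 of the other pathway genes, and with an adjusted p under 0.01 the members were 11 and 16. The other pathway genes ranged from 20 to 25 higher and from 21 to 27 lower when 1 library was left out. The log2 fold change of Pbrm1 was -2.02 to -1.89 in these fits.

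Of the members that were called in none of the fits, some changed sign. These are given as log2 fold changes for Efna1 (-0.053 to 0.015 when 1 library was left out, 0.0033 with library size only, 0.015 without WT replicate 1, 0.0077 without cKO replicate 1 and 0.0080 without cKO replicate 3), Efna5 (-0.15 to 0.097 likewise, 0.00096 with library size only, 0.048 without WT replicate 1, 0.0052 without cKO replicate 2 and 0.097 without cKO replicate 3), Efnb3 (-0.0090 to 0.18, the lowest without WT replicate 3), Epha3 (-0.19 to 0.17, -0.0049 with DESeq2, -0.00045 with RLE size factors, -0.0099 with upper quartile scaling, -0.0080 without a filter, -0.19 without WT replicate 2, -0.038 without cKO replicate 1 and -0.0082 without cKO replicate 3), Sema4g (-0.051 to 0.31, the lowest without cKO replicate 1), Unc5a (-0.12 to 0.17, 0.00058 with DESeq2, 0.014 with library size only, 0.054 without WT replicate 1 and 0.17 without cKO replicate 2) and Unc5cl (-0.57 to 0.049, the highest without WT replicate 3). The cause was not tested.

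With the replicate block 13 members were higher and 17 lower, and the other pathway genes 25 and 30. Deviations of same-numbered libraries correlated at -0.0316, 0.0442 and 0.111, so the numbers were not taken to pair the libraries. Over all genes 6723 were called, and between 5329 (DESeq2) and 7054 (without cKO replicate 2) under the alternatives at the same threshold. With the other scalings the median over all genes was between -0.0103 and 0.0174.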
